A study of Homo sapiens with 4 samples.

Results

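MALAT1, NEAT1, MEG3, MIAT, KCNQ1OT1 and SNHG14 are long noncoding RNAs that are retained in the nucleus, where single-nucleus RNA sequencing (snRNA-seq) samples transcripts. These 6 genes, of 36601 in the deposited matrices, were chosen by name, with their levels in these nuclei and earlier results of the same data already known, and all 6 were found. Levels by class, by neuron identity and by depth are therefore given as a description, without a test. The nuclei came from enteric ganglioids, 3D cultures of enteric neurons and their precursors differentiated from H9, an established human embryonic stem cell line and the only line profiled. Of the 4 samples, 2 were control ganglioids and 2 had received 2 µM PP121, a kinase inhibitor, from day 15 to day 20 of differentiation. The labels number the samples as differentiation replicates 1 and 2 of each group, and the deposited annotation dates replicate 1 of both groups to day 42 and replicate 2 of both groups to day 38, so that day and differentiation cannot be told apart. The study's text gives another single day for all samples.

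A class was annotated for 14812 of 25306 deposited nuclei, 2912 to 4587 per sample. They held 23348045 to 34123759 unique molecular identifiers (UMIs, counted molecules) per sample, with medians of 6289 to 7071 UMIs per nucleus. Levels below are given as counts per 1000000 UMIs of the same nuclei (CPM) and are not adjusted for transcript length. Between 0 and 8 cell barcodes were shared by any pair of samples. Neuron markers, such as DCX and MAPT, summed to 7822 to 10785 CPM in nuclei annotated as enteric neurons and to at most 3025 in any other class. Mesenchymal markers, such as COL1A2 and PDGFRB, summed to 4873 to 5514 in the mesenchymal class and to at most 579 elsewhere. Progenitor markers were at 1914 to 2434 in progenitor 2 but at 649 to 934 in progenitor 1, against 418 to 468 in neurons, 579 to 1164 in mesenchymal nuclei and 1858 to 2361 in the class annotated as unknown. Progenitor 1 thus did not stand apart by these markers and is called by its deposited name. The epithelial class, with CDH1, EPCAM and KRT19 at 30.9 to 59.8 in sum, did not stand apart from the mesenchymal class, at 14.1 to 103.7, and is not described here.

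As background, long noncoding RNAs can act where they are transcribed or as parts of nuclear bodies. MALAT1 accumulates at nuclear speckles, domains rich in splicing factors, and NEAT1 is the scaffold on which paraspeckles assemble. MIAT, also called Gomafu, is a nuclear RNA of the nervous system that binds splicing factors. The other members belong to imprinted regions, in which only the copy from one parent is transcribed. MEG3 is expressed from the maternal chromosome, KCNQ1OT1 is a paternal antisense RNA that silences neighbouring genes, and SNHG14 is a paternal transcript that hosts small nucleolar RNAs and, in neurons, runs antisense across UBE3A.

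On GRCh38, with gene models of GENCODE, MALAT1 lies at chr11:65497688-65506516 and NEAT1 at chr11:65422774-65445540, both on the plus strand and annotated as intergenic noncoding RNAs. MEG3 spans chr14:100779410-100861031 and MIAT chr22:26646428-26676475, on the plus strand. SNHG14 is the longest locus, at chr15:24978583-25419462 on the plus strand. KCNQ1OT1 occupies chr11:2608328-2699994 on the minus strand, and all of its 91667 bases lie within KCNQ1, which spans chr11:2444684-2849110 on the plus strand. Because the sources do not state whether strand was used in counting, UMIs of KCNQ1OT1 and of KCNQ1 cannot be told apart with certainty, and the same holds for SNHG14 and UBE3A, whose loci overlap over 85735 bases.

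Promoters of MALAT1 and MEG3 are shown because they belong to the most and the least abundant member. The sequences come from RefSeq (GRCh38.p14), start 250 bases before the transcript start and end 50 bases after it, and carry CpG dinucleotides in capitals. The MALAT1 window is chr11:65497488-65497787 and the MEG3 window chr14:100825858-100826157, both on the plus strand.
MALAT1: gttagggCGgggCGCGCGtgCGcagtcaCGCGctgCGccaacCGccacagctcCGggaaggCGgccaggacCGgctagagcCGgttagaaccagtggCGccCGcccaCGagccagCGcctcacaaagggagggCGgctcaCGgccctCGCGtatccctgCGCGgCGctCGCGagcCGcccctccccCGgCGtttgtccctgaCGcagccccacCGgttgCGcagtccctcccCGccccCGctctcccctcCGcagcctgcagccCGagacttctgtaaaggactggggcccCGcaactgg
MEG3: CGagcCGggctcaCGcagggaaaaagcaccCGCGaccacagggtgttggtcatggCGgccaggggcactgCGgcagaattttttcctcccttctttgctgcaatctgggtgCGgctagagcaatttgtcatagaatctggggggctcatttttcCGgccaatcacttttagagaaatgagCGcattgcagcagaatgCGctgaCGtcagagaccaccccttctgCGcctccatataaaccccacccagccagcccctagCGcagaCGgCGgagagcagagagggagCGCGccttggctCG
The MALAT1 window held 37 CpG and was 73.7% G and C, and 11.3% of 35116 RefSeq promoters held at least as many CpG. The MEG3 window held 19 CpG at 59% G and C, a count reached by 42.9% of promoters. Of the other members, MIAT and SNHG14 matched the promoter table, with 3 and 9 CpG, which makes 4 of 6 matched, and NEAT1 and KCNQ1OT1 are named only. The table held 2 starts for MALAT1 and 3 for MEG3, and the start nearest the GENCODE gene start was used. The MEG3 window lies inside the MEG3 locus given above, and the SNHG14 window, at chr15:24823358-24823657, lies before the SNHG14 locus.

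Libraries of this kind are primed with oligo-dT, and as background such primers can also anneal to runs of A inside a transcript. The longest such run of the most abundant member and of the longest transcript are shown with the run in capitals and its neighbouring bases on both sides.
MALAT1: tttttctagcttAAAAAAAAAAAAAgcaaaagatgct
KCNQ1OT1: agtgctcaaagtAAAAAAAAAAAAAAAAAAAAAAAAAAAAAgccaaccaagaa
The MALAT1 run is 13 bases long, at bases 8337 to 8349 of a transcript of 8708 bases, and the KCNQ1OT1 run is 29 bases long. In the transcript used for each member, there were 0.360 runs of at least 8 A per 1000 bases in KCNQ1OT1 and 0.154 to 0.264 in the others. Where reads started was not analysed here.

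MALAT1 was the gene with the most UMIs in every sample, among annotated nuclei, among neurons and among progenitors. Of the UMIs of annotated nuclei, it took 6.48% and 5.90% in the controls (replicate 1, then replicate 2, here and below) and 4.81% and 4.32% with PP121. NEAT1 ranked 2 to 16 and SNHG14 ranked 8 to 21 among genes by UMIs over the 4 samples. KCNQ1OT1 ranked 45 to 96 and MIAT 641 to 1071. MEG3 ranked 15875 to 17368, with 300 UMIs in all 14812 annotated nuclei. The members thus ran from the most abundant RNA of these nuclei to one counted in few of them.

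Classes differed in which of these RNAs they carried. NEAT1 was high in progenitor 1, with 7199 and 6086 CPM in the controls against 6218 and 2835 with PP121. In progenitor 2 it stood at 2517, 1728, 1897 and 951 in the same order, and in neurons at 1848, 2109, 1403 and 1186. Every progenitor 1 value was thus above every value of the 2 other classes. Across all progenitors the level in neurons was lower in 4 of 4 samples, by a mean log2 difference of −0.93 ± 0.47 (SD, n = 4).

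MIAT and SNHG14 were the members with the clearest neuronal bias. MIAT had 269 and 327 CPM in control neurons and 325 and 514 in PP121 neurons. Progenitor 1 held 109, 134, 88.4 and 236 and progenitor 2 held 112, 97.0, 97.8 and 128, while mesenchymal nuclei held 19.6 to 53.8. The neuron level lay above that of progenitors by 1.57 ± 0.22 on the log2 scale (SD, n = 4), and mesenchymal nuclei were the lowest of these 4 classes in every sample.

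SNHG14 had 2321 and 1922 CPM in control neurons and 2437 and 1764 in PP121 neurons. It had 960, 845, 1180 and 888 in progenitor 1 and 1324, 1111, 1284 and 1034 in progenitor 2. The log2 difference between neurons and progenitors was 0.93 ± 0.06 (SD, n = 4), the most even of the members, at 0.84 to 0.98 over the 4 samples. Mesenchymal nuclei held 804 to 881, less than either neurons or progenitor 2 in each sample.

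KCNQ1OT1 was highest in mesenchymal nuclei. These held 928 and 1276 CPM in the control samples and 1225 and 1454 in the PP121 samples. Neurons held 611, 783, 740 and 982, progenitor 2 held 618, 715, 552 and 729, and progenitor 1 held 330, 360, 413 and 697. Mesenchymal nuclei led in 4 of 4 samples and progenitor 1 was lowest in 4 of 4, while neurons and progenitor 2 overlapped. Only 40 and 33 mesenchymal nuclei were annotated in the replicates 1 of control and PP121, against 408 and 422 in the replicates 2.

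MALAT1 differed little between neurons and progenitors. Control neurons held 61365 and 57061 CPM, and PP121 neurons held 40586 and 38972. Progenitor 1 held 80579, 66231, 66106 and 55354, and progenitor 2 held 60873, 48471, 45580 and 41449. Progenitor 1 was above progenitor 2 and above neurons within each sample, but the log2 difference between neurons and all progenitors, at −0.19 ± 0.20 (SD, n = 4), was of the size of its spread. That spread covers both treatments, with −0.13 and 0.03 in the controls and −0.44 and −0.24 with PP121. Mesenchymal nuclei held 137420 and 71024 in the controls, against 97359 and 38179 with PP121. They were thus the highest of the 4 classes in 3 samples and the lowest in PP121 replicate 2, the widest range of any of these classes.

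MEG3 was too sparse for an order of classes. Neurons held 2.22 CPM (exact 95% Poisson interval 1.60 to 3.00) in control replicate 1, 1.98 (1.24 to 3.00) in control replicate 2, 2.44 (1.75 to 3.30) in PP121 replicate 1 and 3.54 (2.41 to 5.03) in PP121 replicate 2. Progenitor 1 held 6.06 (3.89 to 9.02) in control replicate 1 and 1.64 to 3.13 in the other samples, and its intervals overlapped those of neurons in the other 3 samples. Only control replicate 1 thus put progenitor 1 above neurons beyond counting error, which is all that these intervals cover.

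**Figure D1:**
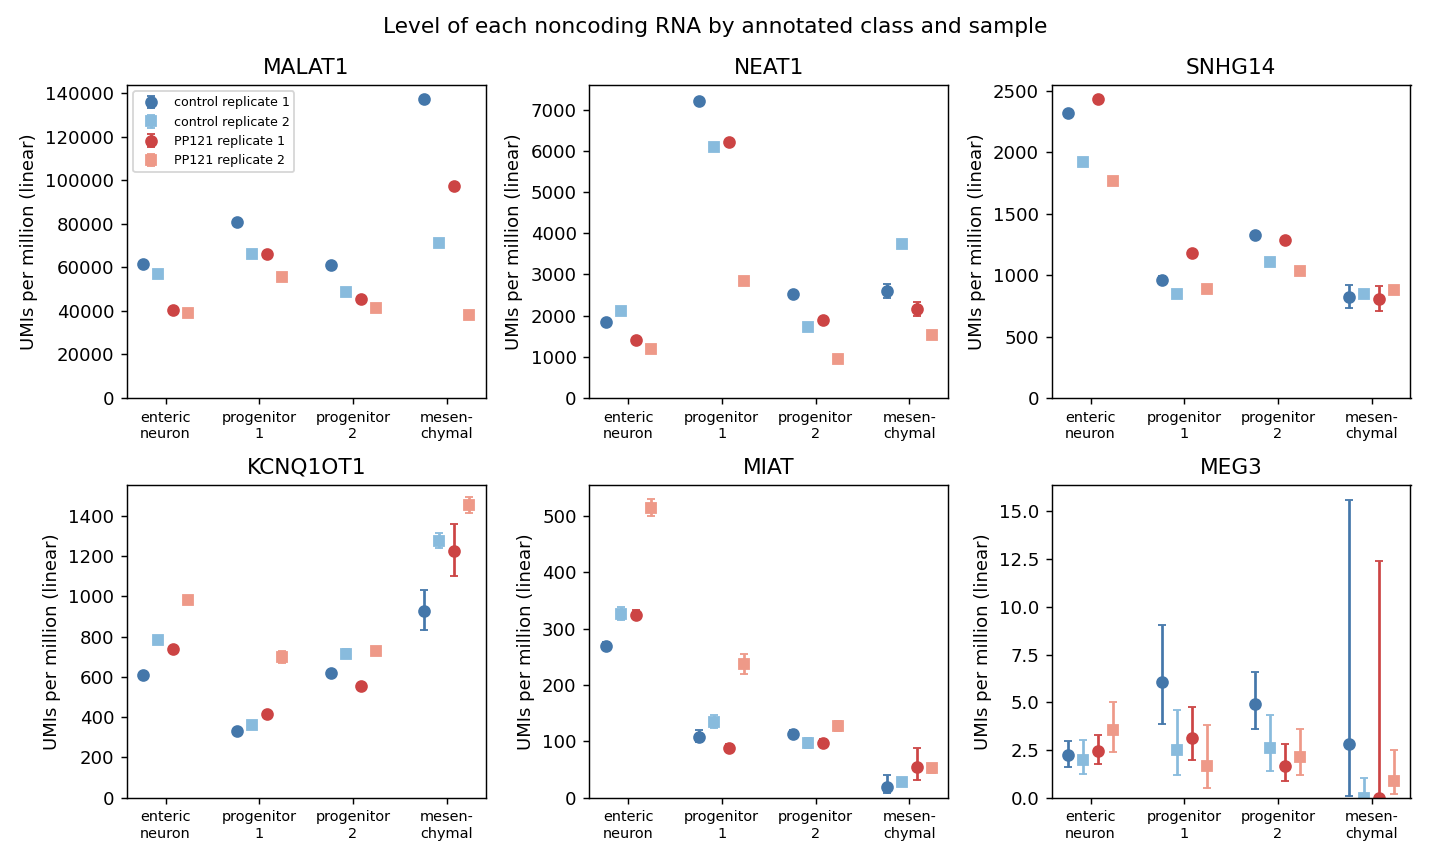
CPM (y axis, linear, starting at 0) of the 6 noncoding RNAs in 4 annotated classes (x axis). Each point is 1 sample and each bar the exact 95% Poisson interval of its count, which covers counting error only and is smaller than the point for the abundant genes. NEAT1 is highest in progenitor 1, MIAT and SNHG14 in neurons and KCNQ1OT1 in mesenchymal nuclei.

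A MALAT1 UMI was counted in every annotated nucleus. Nuclei of one class and sample still differed widely in the share of MALAT1 among their UMIs. In neurons its median was 4.84% in control replicate 1, with the 10th to 90th percentile from 2.41% to 11.5%, and 4.07% (1.73% to 10.7%) in control replicate 2. In PP121 neurons the median was 3.35% (1.67% to 7.42%) and 3.34% (1.61% to 6.59%). Both medians and both upper percentiles were lower in the PP121 samples, while the lower percentiles of control replicate 2 and PP121 replicate 1 lay close together.

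**Figure D2:**
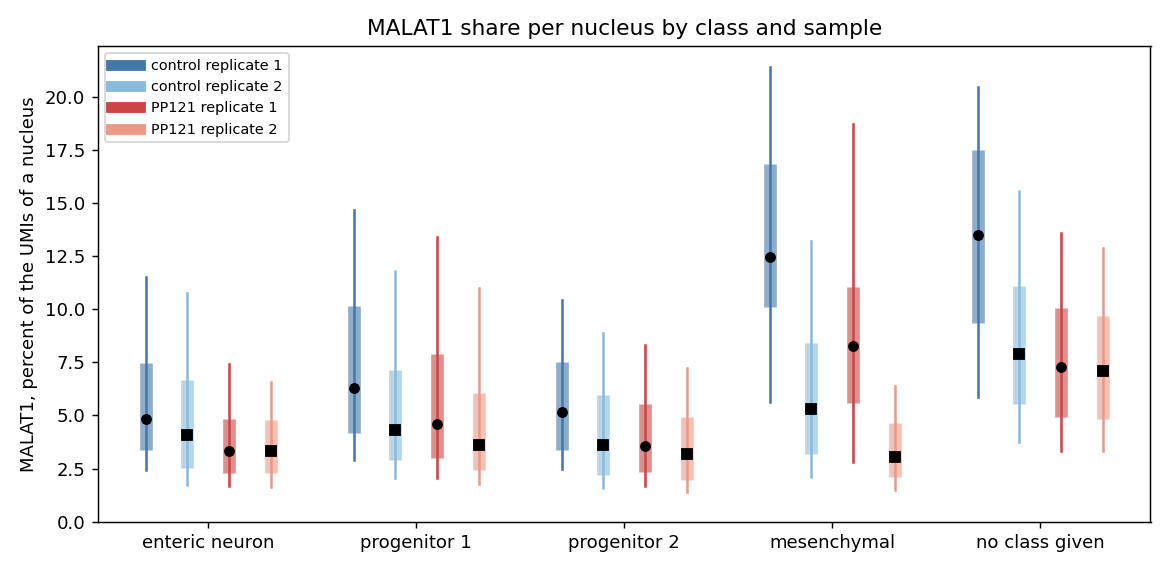
Share of MALAT1 among the UMIs of a nucleus (y axis, percent) by class and sample (x axis). Dots or squares are medians, boxes span the 25th to the 75th and lines the 10th to the 90th percentile over nuclei; the class on the right holds the deposited nuclei that the authors did not annotate. Control replicate 1 has the highest median in each class, 4.84% in neurons and 13.5% among nuclei without a class.

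Depth per nucleus was related weakly to these shares. Spearman's rho across the neurons of a sample, given as a description since the nuclei share a library, was −0.05 to 0.13 for MALAT1, with a mean of 0.04, and 0.10 to 0.18 for KCNQ1OT1, with a mean of 0.14. For SNHG14 it was 0.08 to 0.12. Summed over neurons of 2000 to 4000 UMIs, MALAT1 stood at a mean of 45876 CPM over the 4 samples, and in neurons of at least 16000 UMIs at 49166. That difference was smaller than the spread between samples within either depth range. In progenitors, MALAT1 went from 49043 in nuclei of 2000 to 4000 UMIs to 62719 in those of at least 16000, and NEAT1 went from 4158 to 2615. Progenitor 1, the class with more NEAT1, had a lower median depth (4854 to 5954 UMIs) than progenitor 2 (6242 to 6706), and its part in the NEAT1 pattern was not tested.

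The share of ribosomal protein transcripts varied with that of the members from nucleus to nucleus. In neurons, its rho was 0.17 to 0.35 with MALAT1 and 0.15 to 0.30 with NEAT1, but −0.34 to −0.20 with SNHG14 and −0.28 to −0.04 with KCNQ1OT1. MALAT1 and NEAT1 thus lay on one side of zero and SNHG14 and KCNQ1OT1 on the other in all 4 samples.

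The deposited annotation assigns neurons to 6 transmitter identities from imputed values, and a neuron can carry several of them. Glutamatergic neurons, which release the excitatory transmitter glutamate, had more MALAT1, MIAT and KCNQ1OT1 than other neurons in 4 of 4 samples, with mean log2 differences of 0.32, 0.56 and 0.39. Nitrergic neurons, which make nitric oxide to relax gut muscle and numbered 91 to 449 per sample, had less of the same 3 RNAs in 4 of 4 samples, by −0.39, −0.67 and −0.41. SNHG14 ran the other way, at −0.22 in glutamatergic and 0.33 in nitrergic neurons.

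Nitrergic neurons of the controls held 52234 and 51572 CPM of MALAT1, against 28155 and 28321 with PP121. Glutamatergic neurons held 69118 and 63466 in the controls, against 44201 and 41805 with PP121. MALAT1 was thus higher in glutamatergic than in nitrergic neurons in all 4 samples, and in both identities the control samples lay above the PP121 samples. Median depth was also higher in glutamatergic neurons in all 4 samples, at 7729 to 9021 UMIs against 7180 to 8535, and its part in the result was not tested.

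Cholinergic and GABAergic neurons, which use acetylcholine and GABA, shared some of these differences. MALAT1 was lower by −0.30 and −0.24 and MIAT by −0.45 and −0.39 in 4 of 4 samples, and SNHG14 was higher by 0.30 and 0.22 in 4 of 4, while KCNQ1OT1, at −0.13 and −0.16, was higher in 1 of 4 samples for each. In serotonergic neurons SNHG14 was higher by 0.20 in 4 of 4 samples and MALAT1, at −0.14, was higher in 1 of 4. NEAT1 was lower in cholinergic neurons, by −0.86 against other neurons, and higher in catecholaminergic neurons, which make dopamine or noradrenaline, at 0.29, each in 4 of 4 samples. Identities were set on all genes of the same nuclei, so these differences carry no test.

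**Figure D3:**
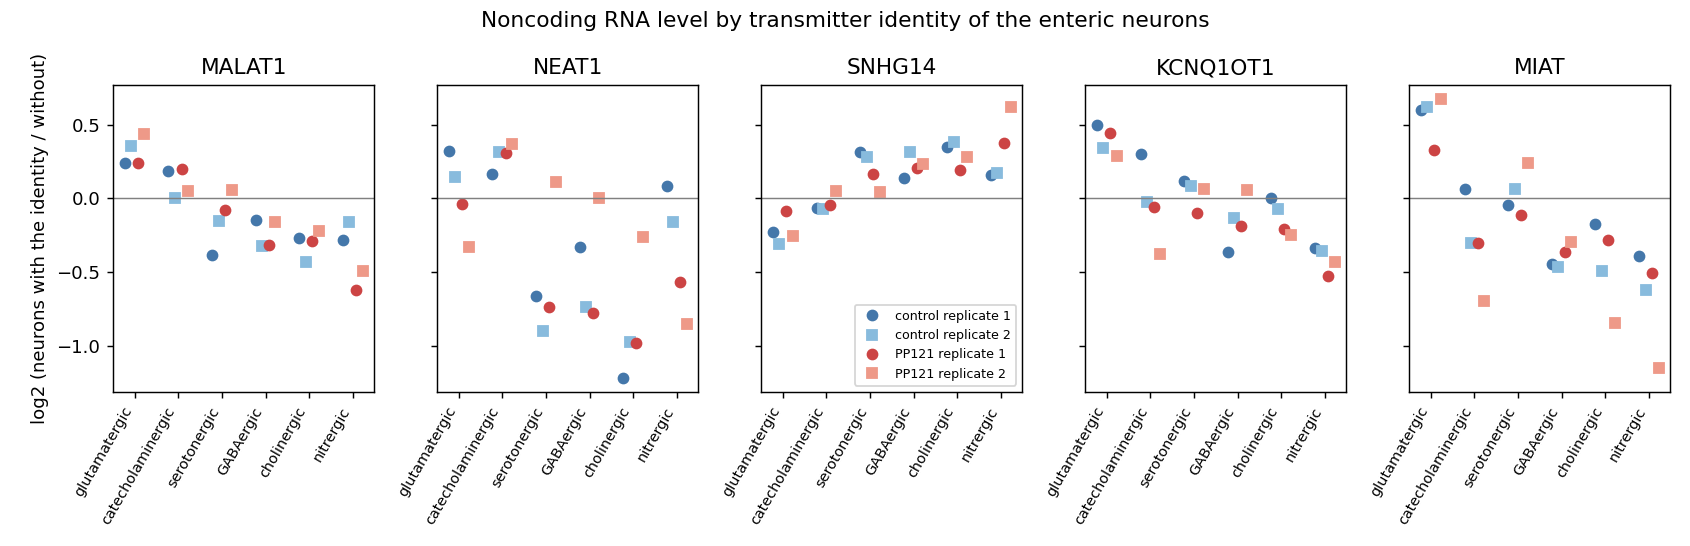
Log2 ratio of the level in neurons with an identity to that in neurons without it (y axis) for 6 transmitter identities (x axis) and 5 of the noncoding RNAs. Each point is 1 sample. MALAT1, MIAT and KCNQ1OT1 lie above 0 in glutamatergic and below 0 in nitrergic neurons in every sample, and SNHG14 the reverse.

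The study compared PP121 with control ganglioids to ask whether the inhibitor altered their cell types, and the members are compared here within each class. In enteric neurons MALAT1 stood at 59213 ± 3043 CPM in control and 39779 ± 1141 in PP121 samples (SD, n = 2 each). Within replicates it was 33.9% lower on day 42 and 31.7% lower on day 38. The groups did not overlap, and the difference was larger than the spread between replicates. With 2 samples each, an unchanged gene can also separate in this way, and the share of all genes that did so was not counted. Without pairing, the log2 change of −0.53 (SE 0.31) had an adjusted p of 0.531 in edgeR's quasi-likelihood test, in which 0% of 21243 genes were called, 2549 had an unadjusted p under 0.05 and DESeq2 called 87. With the replicate as a block, which removes what the 2 days or differentiations share, the change was −0.53 (SE 0.08, adjusted p = 1.82e-05), in a fit that called 14.8% of all genes.

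NEAT1 fell beside MALAT1. Its level was 1979 ± 184 CPM in control and 1294 ± 153 in PP121 neurons (SD, n = 2 each), and the log2 changes within replicates were −0.40 and −0.83. The groups did not overlap, with the same limit as for MALAT1. The blocked fit gave −0.57 (SE 0.09, adjusted p = 7.09e-05), against an adjusted p of 0.377 without the block.

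MIAT and KCNQ1OT1 moved in the opposite direction in neurons. MIAT stood at 269 and 327 CPM in control against 325 and 514 in PP121 samples, so the groups overlapped narrowly, with log2 changes within replicates of 0.27 and 0.65. KCNQ1OT1 stood at 611 and 783 against 740 and 982, also with overlap, and changed by 0.28 and 0.33. Both rises passed the blocked test, at 0.50 (SE 0.09, adjusted p = 0.000472) and 0.34 (SE 0.08, adjusted p = 0.00564), but not the unpaired one, at adjusted p of 0.439 and 0.560. The blocked call of KCNQ1OT1 was lost with DESeq2 (adjusted p = 0.0673) and with classes redrawn by 1 marker rule in all samples (adjusted p = 0.0532).

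SNHG14 and MEG3 did not pass in neurons. SNHG14 changed by 0.07 and −0.12 within replicates, with a blocked estimate of 0.01 (SE 0.08, adjusted p = 0.945). MEG3 changed by 0.14 and 0.84, with a blocked estimate of 0.48 (SE 0.33, adjusted p = 0.375). Of the 6 members, 4 were thus called, 2 in each direction, where 7.98% of all genes rose and 6.86% fell.

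The MALAT1 difference was present in each transmitter identity. Over 6 identities in 2 replicates, PP121 neurons had less MALAT1 in 12 of 12 pairs, by log2 ratios of −0.89 to −0.36. NEAT1 was lower in 11 of 12 pairs. MIAT and KCNQ1OT1 were higher in 12 of 12 pairs, by 0.07 to 0.80 and 0.02 to 0.50, and SNHG14 was higher in 6 and lower in 6. The pairs share neurons and samples, so these counts are a description of where the differences lay.

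Some features of the libraries moved with PP121. Mitochondrial transcripts made up 0.0364% and 0.0384% of the UMIs of control neurons and 0.0160% and 0.0202% of those of PP121 neurons, and their part in the result was not tested. Median depth per neuron was 7345 and 7782 UMIs in the controls against 7210 and 8102 with PP121, and ribosomal protein transcripts were at 1.09% and 1.04% against 1.07% and 0.862%. Among neurons of 4000 to 12000 UMIs alone, the blocked MALAT1 change was −0.53 (adjusted p = 0.000216). Since MALAT1 holds several percent of all UMIs, the others were also rescaled without it, and MIAT then rose by 0.51 (adjusted p = 0.00956) and NEAT1 fell by 0.57 (adjusted p = 0.00621).

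The authors' annotation left out nuclei within the study's own limits in control samples only, 372 (7.99%) in replicate 1 and 196 (6.08%) in replicate 2. Those nuclei held 127509 and 155178 CPM of MALAT1, 6170 and 7281 of NEAT1 and, as a median, 4.45% and 4.47% ribosomal protein transcripts, against 0.931% and 0.853% in annotated nuclei. They were thus far richer in MALAT1 and NEAT1 than any annotated neuron group. Control progenitor 1 reached such NEAT1 levels, at 7199 and 6086 CPM, and mesenchymal nuclei of control replicate 1 held 137420 of MALAT1. The left-out nuclei held 531 and 503 of SNHG14 and 117 and 112 of MIAT, less than control neurons. The study describes removing clusters of low quality after these limits. It lists such a removal, for a high ribosomal gene percentage, for all cells of the control set but not of the merged set. Whether the left-out nuclei formed that cluster was not tested. All left-out nuclei were then added to the control neurons whatever their class, an alternative chosen after seeing the data. The PP121 samples had 0 such nuclei, so this could only widen the gap for both RNAs and is no check of it. The blocked changes became −0.78 for MALAT1 and −0.96 for NEAT1.

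In progenitors the same RNAs were lower with PP121, by less for MALAT1. In progenitor 1 MALAT1 changed by −0.29 and −0.26 within replicates, and in progenitor 2 by −0.42 and −0.23. NEAT1 changed by −0.21 and −1.10 in progenitor 1 and by −0.41 and −0.86 in progenitor 2. All 8 values were negative, but those of NEAT1 differed widely between replicates. In the pooled progenitors no gene (0% of 20260) was called without the block, with 962 genes at an unadjusted p under 0.05 and 40 called by DESeq2.

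The blocked fit of pooled progenitors called 1.72% of genes, among them NEAT1 at −0.62 (SE 0.17, adjusted p = 0.0437) and not MALAT1 at −0.29 (SE 0.10, adjusted p = 0.159). NEAT1 was no longer called when the left-out control nuclei were added (adjusted p = 0.0882). In progenitor 1 alone, where 3.69% of genes were called, MALAT1 fell by 0.30 (adjusted p = 0.0442), NEAT1 fell by 0.68 (adjusted p = 3.85e-06) and KCNQ1OT1 rose by 0.61 (adjusted p = 0.00211). In progenitor 2 alone, where 6.96% were called, MALAT1 fell by 0.29 (adjusted p = 0.0109) and NEAT1 fell by 0.61 (adjusted p = 1.2e-05), while KCNQ1OT1 was at −0.04 (adjusted p = 0.921). The share of progenitor 1 among progenitors was 33.7% and 47.1% in the controls against 52.0% and 36.9% with PP121. In replicate 1, where that share was higher with PP121, the pooled NEAT1 change was −0.01 although it was lower in both classes.

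Whether PP121 acted on these RNAs to a different extent in neurons and progenitors was tested with an interaction term. No gene was called (0% of 21787), with 2123 at an unadjusted p under 0.05. The difference was −0.24 (SE 0.14, adjusted p = 0.618) for MALAT1 and 0.38 (SE 0.14, adjusted p = 0.445) for MIAT. Neither the weaker MALAT1 change in progenitors nor the rise of MIAT in neurons was thus shown to be particular to a class. In progenitors the MIAT change turned sign between replicates, at −0.30 and 0.82 in progenitor 1 and −0.20 and 0.40 in progenitor 2. Over all annotated nuclei, no gene passed without the block (0% of 24123, 1113 unadjusted, 49 by DESeq2), and with it 0.883% did but no member, MALAT1 being at −0.43 (adjusted p = 0.167).

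In mesenchymal nuclei, too few in replicate 1 for a test, MALAT1 was lower with PP121 by log2 ratios of −0.50 and −0.90 and NEAT1 by −0.27 and −1.30. MIAT was higher by 1.46 and 0.92 and KCNQ1OT1 by 0.40 and 0.19. The MIAT ratio of replicate 1 rests on 7 control and 16 PP121 UMIs, whose exact 95% Poisson intervals overlap (7.89 to 40.4 and 30.8 to 87.4 CPM). The signs were those of neurons for these 4 RNAs in both replicates.

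**Figure D4:**
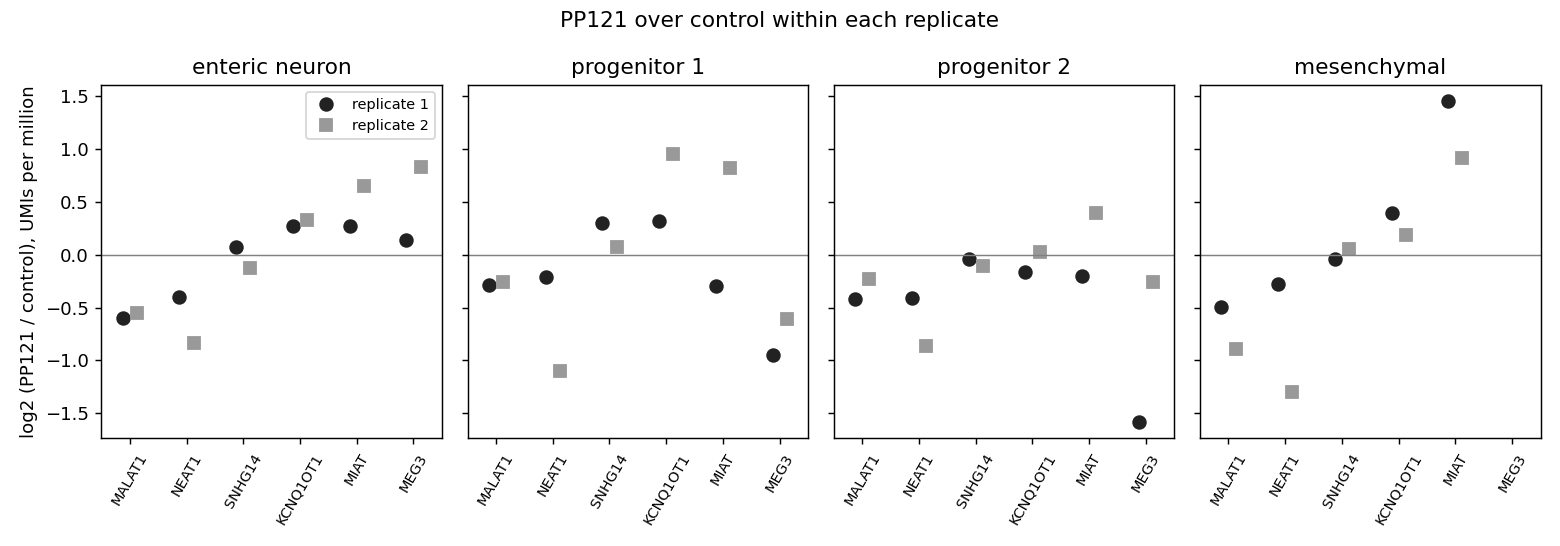
Log2 ratio of the PP121 to the control level (y axis) of each noncoding RNA (x axis) within replicate 1 (circles) and replicate 2 (squares), in 4 classes. MALAT1 and NEAT1 lie below 0 in all 4 classes of both replicates, from −0.23 to −0.90 and from −0.21 to −1.30. The classes share the same 4 samples and are not independent. MEG3 is not drawn for mesenchymal nuclei, which held 4 of its UMIs.

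The proteins that work with these RNAs were followed as lists. All gene lists here were chosen with earlier results of these data known, so their counts and medians are a description. Of 12 paraspeckle proteins, 1 rose and 1 fell with PP121 in the blocked neuron fit, against 7.98% and 6.86% of all genes, with a median change of −0.12 over the list and −0.01 over all genes. SFPQ, one of the proteins that NEAT1 needs to build a paraspeckle, rose by 0.25 (SE 0.09, adjusted p = 0.0491), and NUDT21, a subunit of the cleavage factor that sets sites of polyadenylation, fell by 0.57 (SE 0.11, adjusted p = 0.000771). Of 12 nuclear speckle proteins 1 fell, the splicing factor SRSF1, by 0.43 (SE 0.11, adjusted p = 0.00894), and the median was −0.12. In the blocked progenitor fit no gene of either list was called (0 at an unadjusted p under 0.05 as well), with the core paraspeckle proteins NONO and SFPQ at −0.13 and 0.02 and the speckle proteins SON and SRRM1 at −0.16 and −0.02 (adjusted p = 0.957 to 0.997).

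Neighbours of the imprinted members are read against the 14.8% of all genes called in the same blocked neuron fit. In the KCNQ1OT1 region 2 of 6 genes fell, PHLDA2, a regulator of placental growth, by 1.60 (SE 0.48, adjusted p = 0.0226) and the histone chaperone gene NAP1L4 by 0.28 (SE 0.09, adjusted p = 0.033). In the SNHG14 region, where 7 of 10 listed genes were tested, the noncoding PWRN1 rose by 1.34 (SE 0.10, adjusted p = 5.18e-10) and SNRPN, which encodes a protein of the splicing machinery, fell by 0.31 (SE 0.09, adjusted p = 0.0147). PWRN1 also rose in progenitors, by 1.49 (SE 0.20, adjusted p = 4.9e-06). None of the 3 tested genes of the MEG3 region was called in neurons (0 also unadjusted), with DLK1 at −0.05 (adjusted p = 0.886) and MEG8 at 0.20 (adjusted p = 0.788). Of 4 partners and neighbours of MIAT none was called (1 unadjusted), with MIATNB at −0.09 (adjusted p = 0.736) and QKI at −0.21 (adjusted p = 0.129). In progenitors QKI, a splicing regulator of the MIAT list, fell by 0.57 (adjusted p = 0.0244).

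Of 15 other long noncoding RNAs tested in neurons, 2 rose and 5 fell with PP121, where 7.98% of all genes rose and 6.86% fell. MIR100HG, a microRNA host, fell by 0.69 (SE 0.10, adjusted p = 1.2e-05), and PVT1, a neighbour of MYC, fell by 0.89 (SE 0.14, adjusted p = 5.5e-05). NORAD, a cytoplasmic RNA that binds Pumilio proteins, fell by 0.67 (SE 0.12, adjusted p = 0.000387), and SNHG1, a host of small nucleolar RNAs, fell by 0.75 (SE 0.14, adjusted p = 0.000458). The list median was −0.26 against −0.01 for all genes. Since the list was chosen with earlier results of these data known, neither its count nor its median is a test. PVT1 also fell in progenitors, by 0.81 (adjusted p = 0.00679).

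The second contrast of the design is between the replicates, dated to day 42 and day 38, with treatment in the model. In neurons, MIAT was lower in replicate 1, with 269 against 327 CPM in control and 325 against 514 in PP121 samples. KCNQ1OT1 was lower as well, with 611 against 783 and 740 against 982, while SNHG14 was higher, with 2321 against 1922 and 2437 against 1764. In edgeR's test, which called 9.49% of genes, the log2 differences of replicate 1 from replicate 2 were −0.53 (adjusted p = 0.000280) for MIAT, −0.44 (adjusted p = 0.000575) for KCNQ1OT1 and 0.31 (adjusted p = 0.0151) for SNHG14. MALAT1, at 0.02, and NEAT1, at −0.03, were not called. With both terms in the model, MALAT1 and NEAT1 in neurons were thus called by treatment, SNHG14 by replicate, and MIAT and KCNQ1OT1 by both. None of these treatment calls was made in edgeR's unpaired test of all 4 samples. Likewise, no gene was called between replicates, in neurons or in progenitors, when the treatment term was left out. A gene not called was not shown to be unchanged.

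In progenitors, where 2.99% of genes were called between replicates, NEAT1 was higher in replicate 1 by 0.63 (SE 0.17, adjusted p = 0.0265). Most of this lay in the PP121 samples, at 3926 against 1553 CPM, compared with 3954 against 3578 in control. The PP121 samples differed within each class too, at 6218 against 2835 in progenitor 1 and 1897 against 951 in progenitor 2. MIAT, at −0.52 (adjusted p = 0.138), and KCNQ1OT1, at −0.44 (adjusted p = 0.145), had the direction seen in neurons but were not called.

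Neighbours were called in the same contrast. In neurons CDKN1C, a cell cycle inhibitor in the KCNQ1OT1 region, was lower in replicate 1 by −0.60 (adjusted p = 0.000657), and KCNQ1, whose locus contains KCNQ1OT1, by −0.48 (adjusted p = 0.00428). UBE3A, the ubiquitin ligase gene that SNHG14 overlaps on the other strand, was higher by 0.32 (adjusted p = 0.0190), as was SNHG14 itself, and PWRN1 was lower by −0.69 (adjusted p = 2.5e-05). DIO3OS of the MEG3 region was lower by −1.59 (adjusted p = 0.0202). Among other noncoding RNAs, CRNDE was lower by −0.62 (adjusted p = 0.000213), and MIR100HG and OIP5-AS1 were higher by 0.40 (adjusted p = 0.00600) and 0.33 (adjusted p = 0.0395). In progenitors DLK1, the imprinted growth regulator beside MEG3, was higher by 1.08 (adjusted p = 0.00302), PWRN1 lower by −0.92 (adjusted p = 0.00358) and PVT1 higher by 0.62 (adjusted p = 0.0460). No paraspeckle or speckle protein was called in either class, with NONO at −0.09 and −0.28, SFPQ at −0.14 and −0.17, SON at 0.02 and 0.07 and SRRM1 at 0.06 and 0.10 in neurons and progenitors (adjusted p = 0.369 to 0.910).

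The deposited annotation assigns each nucleus a phase, G1, S or G2M, scored from cell cycle genes, none of which is a member. The phases are used here as deposited, and cycling itself was not tested. MALAT1 stood at 64556 and 49869 CPM in G1 progenitors of the controls and at 51906 and 42329 in those of the PP121 samples, and, in the same order, at 71326, 64556, 59796 and 48839 in G2M. KCNQ1OT1 stood at 606, 651, 569 and 902 in G1 and at 387, 476, 351 and 629 in G2M. The former was higher and the latter lower in G2M in 4 of 4 samples. With the sample as a block, 27% of 17116 genes were called, MALAT1 rose by 0.24 (SE 0.04, adjusted p = 0.000307) and KCNQ1OT1 fell by 0.57 (SE 0.06, adjusted p = 7.65e-07). Progenitor 1 made up 47.6% to 61.1% of G2M but 21.6% to 36.2% of G1 nuclei. It held more MALAT1 and less KCNQ1OT1 and SNHG14 than progenitor 2 in each sample. These pooled changes thus include the mix of classes, and each class alone is given below.

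SNHG14 fell by 0.30 (SE 0.06, adjusted p = 0.000375) and MIAT fell by 0.34 (SE 0.09, adjusted p = 0.00748) in G2M, each in 4 of 4 samples. The call of MIAT was lost without control replicate 1 (adjusted p = 0.0797) and among nuclei of 4000 to 12000 UMIs (adjusted p = 0.0934). MEG3, at 0.09 (SE 0.39, adjusted p = 0.896), rested on 6 to 34 UMIs per sample and phase. Median depth was lower in G2M, at 4910 to 6280 UMIs, than in G1, at 5745 to 6554.

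NEAT1 rose by 0.27 in G2M over the pooled progenitors (SE 0.07, adjusted p = 0.00773), a call lost without control replicate 2 (adjusted p = 0.127) and in DESeq2 (adjusted p = 0.189). G2M nuclei were more often progenitor 1, which is rich in NEAT1, at 47.6% to 61.1% against 21.6% to 36.2% of G1 nuclei. In progenitor 2 alone NEAT1 fell by 0.44 (SE 0.07, adjusted p = 4.39e-05), with 2668, 1856, 1917 and 1214 CPM in G1 and 1730, 1733, 1439 and 778 in G2M. In progenitor 1 alone it was at 0.09 (SE 0.08, adjusted p = 0.561). The pooled rise was thus called in neither class alone, and a test of the difference between the classes gave −0.56 (SE 0.12, adjusted p = 0.00716), among 2.62% of 14809 genes called.

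Within progenitor 2, where 9.91% of genes were called, MALAT1 rose by 0.11 (adjusted p = 0.00542), and KCNQ1OT1, SNHG14 and MIAT fell by 0.39, 0.23 and 0.54 (adjusted p = 0.000100, 0.00324 and 0.000326). Within progenitor 1, where 6.23% were called, KCNQ1OT1 was the one member called, with a fall of 0.56 (adjusted p = 0.00101), and MALAT1 was at 0.18 (adjusted p = 0.16). KCNQ1OT1 was therefore lower in G2M in both classes tested apart. In progenitor 1 of control replicate 1, MALAT1 was lower in G2M, at 77540 CPM against 82293 in G1.

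**Figure D5:**
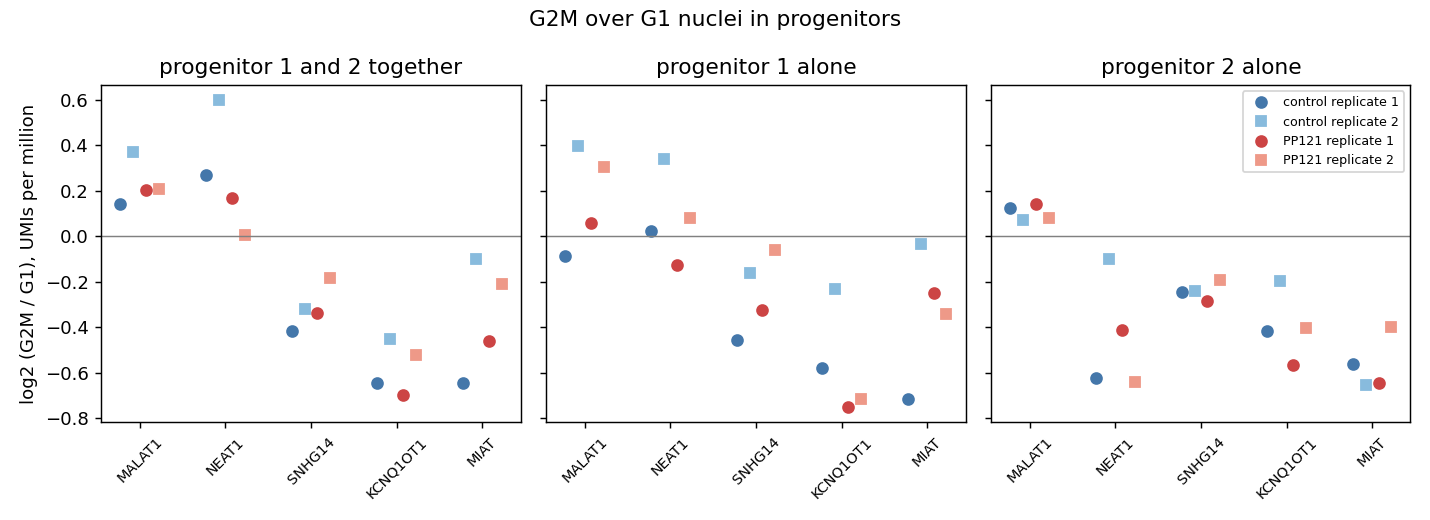
Log2 ratio of the level in G2M to that in G1 nuclei (y axis) of 5 noncoding RNAs (x axis) in all progenitors and in each progenitor class; each point is 1 sample. KCNQ1OT1 lies below 0 in every sample of all panels, and NEAT1 lies above 0 in the pooled panel and below 0 in progenitor 2.

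The protein lists were compared between the same phases. All 12 paraspeckle proteins rose in G2M over the pooled progenitors, against 14.1% of all genes, with a list median of 0.36 and a median of all genes near 0. HNRNPH3, an RNA-binding protein, rose by 0.62 (SE 0.08, adjusted p = 6.06e-06), NUDT21 by 0.58 (SE 0.08, adjusted p = 2.98e-05) and the splicing regulator HNRNPM by 0.50 (SE 0.08, adjusted p = 0.000110). Of 12 speckle proteins 11 rose, with a median of 0.29, among them SRSF3 at 0.48 (SE 0.08, adjusted p = 0.000184) and SRRM1 at 0.43 (SE 0.08, adjusted p = 0.000290), both splicing factors. Within one class at a time, 3 paraspeckle and 2 speckle proteins of 12 each rose in progenitor 1, where 2.94% of all genes did, and 5 and 1 in progenitor 2, where 5.98% did, with list medians from 0.16 to 0.27, and NUDT21 was at −0.04 in progenitor 2.

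Near the other members, KCNQ1 fell by 0.36 (adjusted p = 0.0336) in G2M over the pooled progenitors, as did KCNQ1OT1, while NAP1L4 rose by 0.36 (adjusted p = 0.000331). MEG8 of the MEG3 region fell by 1.01 (adjusted p = 0.0294), and PWRN1 and MKRN3 of the SNHG14 region fell by 0.87 (adjusted p = 1.6e-05) and 0.42 (adjusted p = 0.0173). MIATNB, which shares 3709 bases of its strand with MIAT, fell by 0.46 (adjusted p = 0.0263), and SF1, a branch point binding protein that MIAT binds, rose by 0.36 (adjusted p = 0.00380). Of 14 other long noncoding RNAs tested 3 rose and 4 fell, where 14.1% of all genes rose and 12.9% fell, with SNHG1 up by 0.97 (adjusted p = 1.71e-06) and RMST, SOX2-OT and MIR100HG, the first of which is linked to neural differentiation, down by 0.50 (adjusted p = 1.32e-06), 0.48 (adjusted p = 6.84e-06) and 0.57 (adjusted p = 9.52e-06).

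Lastly, the genes with the most similar pattern were sought over 18 profiles, each a class of 1 sample with at least 50 nuclei, among 8559 genes with a mean of at least 20 CPM. For MALAT1 these were RAB11FIP2, ITM2B and FAM199X, with Pearson's r of 0.91, 0.88 and 0.87 of log2(CPM + 1). For NEAT1 they were SRP54, GOLGB1 and SUCO (0.97, 0.97 and 0.95), and for SNHG14 MAPRE3, CADM2 and DNER (0.96, 0.96 and 0.95). MIAT went with PKIA, SCN8A and ELAVL2 (0.96, 0.95 and 0.95), of which SCN8A encodes a neuronal sodium channel and ELAVL2 a neuronal RNA-binding protein. The gene most like KCNQ1OT1 was KCNQ1, with r of 0.96, whose reads the counting may not separate, followed by RBMS3 and RBMS3-AS2 (0.93 and 0.92). For MEG3, below the minimum level itself, they were SYCE2, BFAR and DPP9 (0.83, 0.81 and 0.81). Between members, r was 0.79 for MALAT1 and NEAT1 and −0.64 for NEAT1 and KCNQ1OT1. The profiles share samples and libraries, so these values are a description.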

How the data were processed

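Gene counts per nucleus (UMIs, from a droplet assay that tags transcript 3′ ends) were deposited by the authors as 1 matrix per sample, with no normalization. The study's methods name kallisto and bustools for counting, and the submitters' processing notes name Cell Ranger, Seurat 4.0.4 and GRCh38. Whether introns or strand were counted is not given in the sources used here. Class, phase, transmitter identity, day and the percent of mitochondrial and ribosomal UMIs per nucleus were used as deposited by the authors. Nuclei that the authors marked as filtered have no class and were left out of the tests, and samples were grouped by their labels, since a deposited sample column disagrees with them for the controls. No doublet caller was run here, and how doublets were treated is not given in the sources used here, so an annotated nucleus, or one with several identities, may be a doublet.

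UMIs were summed per sample and class. PP121 and control, replicates 1 and 2, and G2M and G1 (sample as a block) were compared with edgeR 4.0.16 (quasi-likelihood test, TMM, filterByExpr, two-sided, Benjamini-Hochberg over all genes, threshold 0.05), and DESeq2 1.42.0 was an alternative. The fits were also run on simulated counts with known changes. These had the same dispersion for every gene and a shift shared by same-numbered samples, so they do not measure error rates in these data. The smallest two-sided p of an exact permutation test of 2 against 2 samples is 0.333, so none is given. Replicate numbers mark a shared deposited day and thus pair the samples. Same-numbered samples deviated together from their group means (r across genes 0.532 in all annotated nuclei, 0.421 in neurons, 0.284 in progenitors). The blocked fit has 1 residual degree of freedom, so no sample could be left out of it. Nothing says whether samples sharing a number came from 1 differentiation. P-values rest on the spread between these samples, moderated by that of other genes, which weighs more where few degrees of freedom remain. Standard errors of edgeR were derived from the change and its test statistic. Intervals and floors cover counting error only.

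The members, the gene lists and the rules were chosen with earlier results of these data known. The members are always named. From a list, genes past the test are named, at most 4 by smallest p, or the first 2 tested where none passed. The value of 1 list gene is not reported here. Of the SNHG14 list, 8 of 10 symbols had a row. Likeness used log2(CPM + 1). Alternatives covered scaling, filters, tool, block, depth window, class boundaries, the left-out control nuclei (at most 7000 features, 40000 UMIs and 10% mitochondrial UMIs) and each sample left out in turn.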

Additional observations from a re-analysis of the deposited data

Results flagged for a closer look

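For MEG3, the change with PP121 had opposite signs in neurons and progenitors in both replicates. The log2 change was 0.14 and 0.84 in neurons against −0.95 and −0.61 in progenitor 1, a mean difference of 1.27, and against −1.59 and −0.26 in progenitor 2, a mean difference of 1.41. Neither of these differences was tested, and against the pooled progenitors the difference of 1.34 had an adjusted p of 0.408 in edgeR. These changes rest on 5 to 44 UMIs of MEG3 per sample and class. In neurons of replicate 1 the counts were 42 in control and 41 with PP121. The Poisson intervals of control and PP121 overlapped there and in every other pair except progenitor 2 of replicate 1. That pair held 4.92 CPM (3.58 to 6.61) in control and 1.64 (0.87 to 2.80) with PP121. The signs of the overlapping pairs are not set apart from counting error. For SNHG14, the changes were 0.30 and 0.07 in progenitor 1 and −0.04 and −0.10 in progenitor 2, a mean difference of 0.26 that was not tested. For NEAT1, the change from G1 to G2M in progenitor 2 differed from that in progenitor 1 by −0.56, with an adjusted p of 0.00716 in edgeR.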

How the results depend on the processing

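Genes called for PP121 against control depended on the fit. Over all annotated nuclei (0 in the unpaired fit), the number was 49 with DESeq2 and 1 with no filter. With the replicate block it was 213, and 295 with DESeq2, 213 with MALAT1 out of the totals, 759 at 4000 to 12000 UMIs, 138 with the left-out control nuclei added and 1379 over all deposited nuclei. In neurons (0), it was 87 and 69, and with the block 3153, or 633, 2187, 2059 and 4881 in the same order and 1292 with redrawn classes. In progenitors (0), it was 40 and 270, and with the block 349, or 111, 475, 253 and 296, with 634 for redrawn classes, 593 for progenitor 1 and 1315 for progenitor 2 alone. Leaving out 1 sample without the block gave 0 to 8, 0 to 1402 and 0 to 168 genes, the highest without PP121 replicate 1, where MIAT was called in neurons (adjusted p = 0.0153, edgeR). Between replicates, neurons went from 2016 to 1284 with DESeq2's size factors, 453 with DESeq2, 1263 with MALAT1 out of the totals, 1241 at 4000 to 12000 UMIs and 0 with no treatment term (1574 at an unadjusted p under 0.05), and progenitors from 606 to 169 and 0 (2248) under the second and the last. Samples could not be left out there, as no residual degrees of freedom remain. G2M against G1 went from 4622 to 2644 with DESeq2, 781 with no sample block, 793 in progenitor 1 and 1557 in progenitor 2.

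Of 516 values of the members under other settings, 426 kept direction and call, 37 gained a call, 22 lost one and 31 turned direction; of 594 values of named list genes the numbers were 428, 80, 85 and 1. Only NEAT1 turned direction with a call, from G1 to G2M in progenitor 2 (−0.44). The others turned without one, on the log2 scale. For PP121 over all annotated nuclei, leaving out 1 sample gave −0.47 to 0.19 for MEG3 (positive without control replicate 1), −0.12 to 0.52 for KCNQ1OT1 (negative without PP121 replicate 2) and −0.29 to 0.17 for SNHG14 (0.13 without control replicate 1, 0.17 without PP121 replicate 2), and SNHG14 was at 0.0062 with the left-out nuclei. In neurons SNHG14 was at −0.072 without control replicate 2, −0.20 without PP121 replicate 1 (0.21 without PP121 replicate 2), and −0.0087 and, with the block, −0.015 with redrawn classes. In progenitors, leaving out 1 sample gave −1.22 to 0.00057 for NEAT1, −0.33 to 0.59 for MIAT and −0.23 to 0.44 for KCNQ1OT1, the sign turning without PP121 replicate 2, where SNHG14 was at 0.10. In progenitor 2 alone KCNQ1OT1 was at −0.028 and, blocked, −0.039. SNHG14 in progenitors, at −0.0023, was at 0.0040 with DESeq2 or its size factors (0.0015 blocked), 0.015 with no filter, 0.012 without MALAT1 in the totals (0.0099 blocked), 0.035 at 4000 to 12000 UMIs (0.032 blocked), 0.092 without control replicate 1, 0.089 (0.086 blocked) with the left-out nuclei and 0.17 (0.16 blocked) in progenitor 1. In G2M, MEG3 was at −0.069 without control replicate 2 and −0.11 without PP121 replicate 1 (0.056 without PP121 replicate 2), and NUDT21 at −0.043 in progenitor 2. The neuron to progenitor difference of MEG3 was 0.012 with redrawn classes and ranged from −0.52 to 0.17 when 1 sample was left out (positive without control replicate 1), and that of MIAT was 1.16 with redrawn classes. Spearman's correlation with depth was −0.021 for MALAT1 with its own UMIs left out of the depth, and in progenitors −0.019 for NEAT1, 0.17 for MIAT and 0.18 for KCNQ1OT1. The causes were not tested. Chosen after seeing the data were the progenitor classes tested apart for PP121, the left-out nuclei, the block combined with the depth window, DESeq2, MALAT1 out of the totals or all deposited nuclei, and both tests of a difference between classes. The replicate block changed no call of a member over all annotated nuclei.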

Other observations

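Deposited nuclei without a class, with medians of 666 to 823 UMIs per nucleus, also carried these RNAs. MALAT1 stood at 84675 and 77374 CPM in those of the controls (replicates 1 and 2) and at 55043 and 55418 in those of the PP121 samples. NEAT1 stood at 2817, 3179, 2416 and 1104 in the same order. Per nucleus, the median share of MALAT1 was 13.5%, 7.91%, 7.27% and 7.07%, above the median of annotated neurons in each sample. MIAT was at 182 to 273 CPM in these nuclei and KCNQ1OT1 at 586 to 914. The class annotated as unknown held 51671 to 69823 CPM of MALAT1 and 41.5 to 61.9 of MIAT.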
